A study of Ovis aries and Sus scrofa and Bos taurus with 33 samples.

Results

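The comparison covers the 15 sheep RNAseq libraries of the series, which holds 33 libraries in all, and sets 2 kinds of line name against each other. On one side are 9 libraries of 3 lines whose names begin with AFX, lines B, K and 23. On the other are 6 libraries of 2 lines named by number alone, lines 1 and 13. Members were chosen by the name of the line in the sample labels and not by a measured value. Earlier results of these data were known at that choice. Every library is from embryonic disc stem cells (EDSCs) of Ovis aries, and the labels describe AFX medium and a laminin and fibronectin coating for both sides, so the prefix is not a difference of medium in the labels. Libraries of line B come from passages 5, 7 and 8. Those of line K come from passages 4, 6 and 7, and those of line 23 from passages 6, 8 and 9. For line 1 they are from passages 9, 10 and 11, for line 13 from passages 10, 11 and 12. The mean passage was 6.67 on the AFX-prefixed side and 10.5 on the numbered side, and both sides had a library at passage 9 only. Side and passage therefore cannot be told apart in the comparison of all libraries. The labels used here give neither sex, genotype nor embryo of origin for a line. The paper states that its sheep samples were a mix of lines from embryonic discs and from inner cell masses. Which line had which origin is not given here, so origin may also differ between the sides and was not tested.

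EDSCs are pluripotent cells related to the epiblast of the embryonic disc, the layer of the embryo that goes on to form all tissues of the body. They are grown without feeder cells in activin A, fibroblast growth factor 2 and XAV939. Activin signals through SMAD proteins and fibroblast growth factor through the ERK pathway, and both sustain epiblast-type pluripotency in culture. XAV939 inhibits tankyrase, which stabilises AXIN and lowers Wnt signalling through beta-catenin. Separately derived lines of pluripotent cells differ in gene expression through the embryo they came from and through changes acquired in culture, which is background knowledge and not a result of these data.

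The sheep table lists 20921 protein-coding genes by Ensembl identifier, 18700 of them above 0 in at least 1 library. No table used here pairs these identifiers with gene names. Pluripotency factors, pathways and markers of cell type were therefore not analysed here, the label of the cells was not checked against markers, and genes are described by their levels, sizes and behaviour over libraries. Values are log2(FPKM + 1), where FPKM expresses reads per unit of gene length and of library total. Library totals, worked back from the values, were between 9539976 and 13094178 reads on the AFX-prefixed side (median 11262398) and between 8164710 and 10041782 on the numbered side (median 9130197). The totals of the 3 AFX-prefixed lines, averaged over passages, all lay above those of the numbered lines. Between 15742 and 16368 genes were detected in an AFX-prefixed library and between 15990 and 16266 in a numbered library. A gene near 1 FPKM had a median of 17.9 reads in a library, for which counting alone gives an error of about 23.7%.

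The unit of the comparison is the line. The 3 libraries of a line are passages of 1 culture, so they were averaged, and 3 line means were set against 2. Of the 13555 genes with enough reads to be tested, 4 differed between the sides (limma on the 5 line means, adjusted p below 0.05), 3 of them higher and 1 lower on the AFX-prefixed side. These are 0.0221% and 0.00738% of the genes tested. At an unadjusted p below 0.05 there were 2341 genes. The number called depended on single lines and libraries. The balance of directions was not stable either, with 2 higher and 11 lower in limma voom on reads summed per line, 3 and 5 without a trend in eBayes, 3 and 9 without line B at passage 8, and 11 and 15 without line 13. The total was 0 without line B (2060 at an unadjusted p below 0.05), 1 without line K, 6 without line 23, 0 without line 1 (1307 at an unadjusted p below 0.05) and 26 without line 13. It was 2 without line B at passage 7, line K at passage 7 or line 23 at passage 9, and 12 without line B at passage 8.

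Line ranges that did not overlap were then counted, which is a description and carries no test. The 5 lines can be split into 3 and 2 in only 10 ways. Separate ranges are therefore not rare in genes without a side difference. In 1468 genes (10.8% of those tested) the 3 AFX-prefixed line means were all above the 2 numbered means, and in 3569 genes (26.3%) they were all below. Most of these differences were small, and 221 of the genes above and 548 of the genes below differed by at least 0.5. The median difference of side means, AFX-prefixed minus numbered on log2(FPKM + 1), was 0.224 for the genes above (interquartile range 0.141 to 0.38) and -0.267 for the genes below (interquartile range -0.406 to -0.176). Over all genes tested the median was -0.0529 and 61.8% of genes were lower on the AFX-prefixed side.

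The balance between higher and lower genes moved with the scaling of the libraries. Genes above made up 29.1% of the 5037 separated genes as deposited, 41.5% after each library was shifted to the same upper quartile (2018 above and 2848 below) and 47.4% after quantile normalisation (2227 above and 2469 below). The median of log2(FPKM + 1) over tested genes was between 3.85 and 3.99 in AFX-prefixed libraries and between 3.96 and 4.04 in numbered ones. The 100 most abundant genes held between 18.26% and 20.59% of the reads of an AFX-prefixed library and between 17.72% and 18.71% of a numbered one. Line means of this share did not overlap between sides (mean 19.39% against 18.17%, exact permutation test over the 10 ways of taking 2 of 5 lines, two-sided, p = 0.1, the smallest the design allows). The part of these shares in the excess of lower genes was not tested.

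Level and length also went with the direction of small differences. Among the 1126 genes with a mean of 100 FPKM or more, 293 were separated above and 108 below, and the median difference was 0.0485. Among the 4322 genes between 1 and 10 FPKM, 368 were separated above and 1361 below, with a median difference of -0.115. In the shortest of 4 equal length classes, of at most 951 bases, 505 were separated above and 660 below. In the longest class, of at least 2891 bases, 248 were separated above and 1062 below. The median difference passed from -0.0212 in the shortest class to -0.0751 in the longest.

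A difference of at least 1, which is close to a doubling for genes well above 1 FPKM, together with separate line ranges was found in 116 genes. Of these, 42 (0.31% of genes tested) were higher on the AFX-prefixed side, with a median difference of 1.27, and 74 (0.546%) were lower, with a median of -1.21. With a pseudocount of 0.1 in place of 1 the number was 320 (102 higher and 218 lower). After quantile normalisation the direction of the excess turned, with 56 higher and 50 lower, and upper quartile scaling gave 46 higher and 62 lower. Without line 13 the number was 243 (102 higher and 141 lower) and without line 1 it was 132 (51 higher and 81 lower). The limit of 1 falls in a continuous run of sizes, as the largest difference below it was 0.9931.

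**Figure D1:**
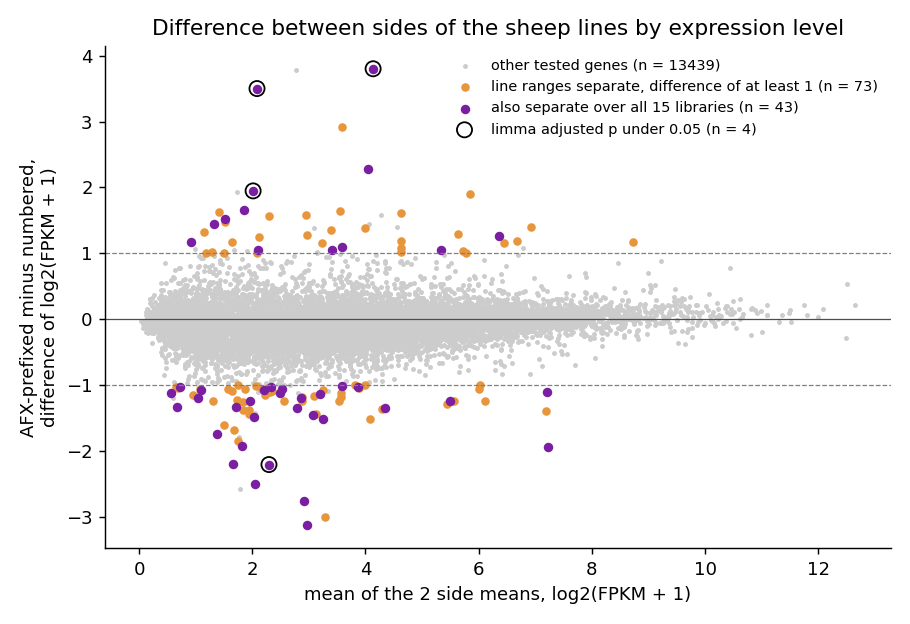
Difference of side means (AFX-prefixed minus numbered, log2(FPKM + 1), vertical) against the mean of both side means (horizontal) for the 13555 tested genes, with dashed lines at -1 and 1. Orange and purple points are the 116 genes with separate line ranges and a difference of at least 1, purple ones are the 43 that are also separate over all 15 libraries, and circles mark the 4 genes called by limma, whose differences run from -2.20 to 3.80.

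The median level of these genes was below that of all genes tested, although 7 of the 116 (4 higher and 3 lower) had a mean of 100 FPKM or more. The genes higher on the AFX-prefixed side had a median of 12.1 FPKM over the libraries and of 85 reads in a library, and the lower genes 4.71 FPKM and 60 reads, against 14.6 FPKM and 231 reads for all genes tested. Their median lengths were 912 and 1326 bases against 1671. In 33 of the 42 higher genes and 56 of the 74 lower genes, the difference between sides was larger than the widest spread among the lines of either side. The gap between the nearest lines of the 2 sides had a median of 0.647 in the higher genes and 0.71 in the lower ones, and it reached 1 in 8 genes of each direction. A difference of at least 2 was found in 10 of the 116 genes, 4 higher and 6 lower.

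The lines did not share these gaps equally. Line 13 was the numbered line nearer to the AFX-prefixed side in 30 of the 42 higher genes and in 48 of the 74 lower genes, and line 1 was nearer in 12 and 26. On the AFX-prefixed side, line 23 was nearest to the numbered lines in 16 higher genes, line K in 14 and line B in 12. In the lower genes the nearest was line B in 36, line 23 in 23 and line K in 15.

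Differences between single lines were also counted. Lines of different sides differed by at least 1 in 159 to 395 of the tested genes, and lines of the same side in 102 to 192. The 2 ranges overlapped, because lines B and 13 differed in 159 genes whereas lines K and 23, both AFX-prefixed, differed in 192. The pair furthest apart was K and 1 with 395 genes, and the closest was B and 23 with 102. Pearson correlation of line means across tested genes, which are not independent replicates, was 0.9887 to 0.9920 within the AFX-prefixed side, 0.9896 between lines 1 and 13, and 0.9798 to 0.9880 across sides.

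Large differences were also found in genes whose line ranges overlapped. There were 22 such genes with a difference of at least 1, 12 higher and 10 lower on the AFX-prefixed side. One had line means of 6.66 in line B and 6.62 in line K but 0.69 in line 23, and of 1.19 in line 1 and 0.56 in line 13. Its difference of 3.78 between sides thus came from 2 of the 3 AFX-prefixed lines (limma, adjusted p = 0.343). Another had a mean of 5.75 in line 1 and between 0.32 and 0.75 in the other 4 lines, which gave a difference of -2.57 through a single numbered line (adjusted p = 0.399). Both were singled out after their values were seen.

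The stricter requirement that all 9 AFX-prefixed libraries lie outside the range of all 6 numbered libraries was met by 342 genes, 72 above (0.531% of genes tested) and 270 below (1.99%). Upper quartile scaling gave 97 above and 188 below and quantile normalisation 109 and 177, so genes below stayed the more frequent under the scalings tried. The number was 518 without line 23 at passage 6. Of the 116 genes with separate lines and a difference of at least 1, 43 met the requirement (13 higher and 30 lower) and 73 did not.

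In those 116 genes, single libraries entered the range of the other side at different rates. Line 13 at passage 12 did so in 47 genes (40.5%), line B at passage 8 in 44 (37.9%), line 13 at passage 11 in 35 (30.2%) and line B at passage 7 in 33 (28.4%). The libraries that did so least were line B at passage 5, in 6 genes (5.17%), and line K at passage 4, in 8 genes (6.9%), which are the 2 earliest passages in the data. The order of passages did not hold in every line, as line 23 did so in 16, 14 and 28 genes at passages 6, 8 and 9. The genes were chosen on line means that include these libraries, so the rates are not independent of the choice. The 3 libraries of line 1 did so in 17 to 19 genes.

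**Figure D2:**
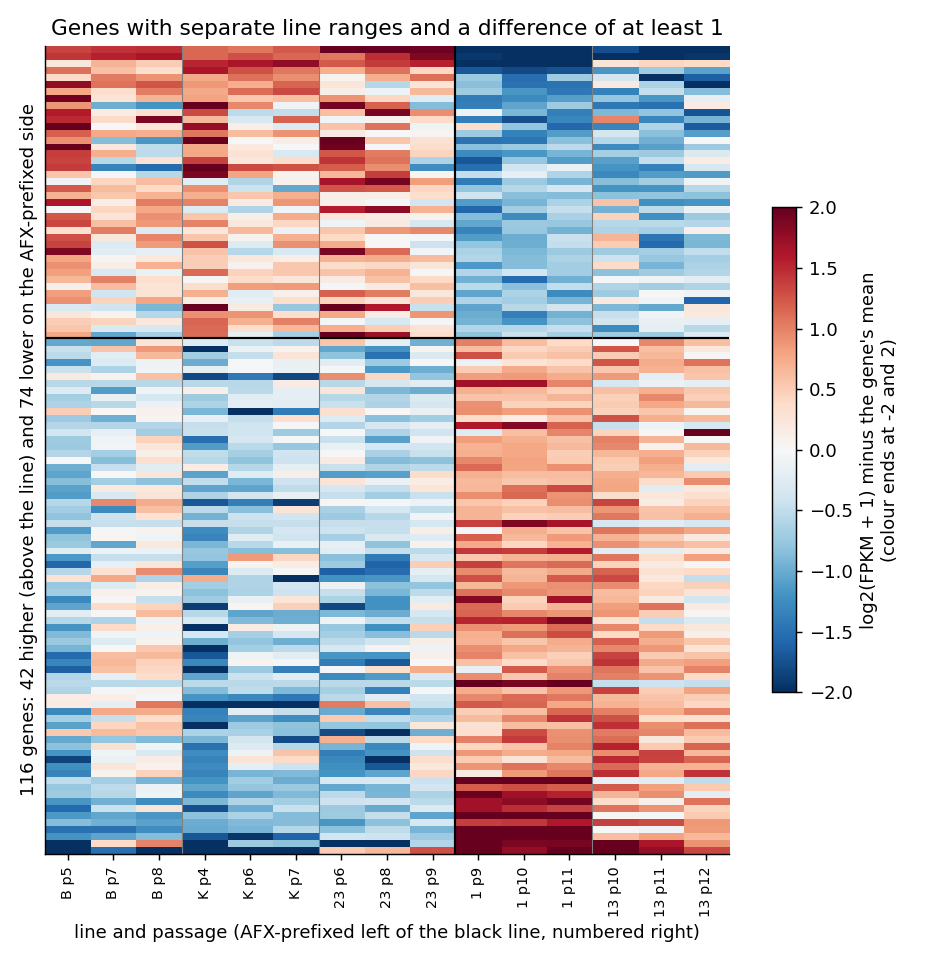
Expression of the 116 genes with separate line ranges and a difference of at least 1 (rows, ordered by the difference) in the 15 libraries (columns, by line and passage), coloured by log2(FPKM + 1) minus the mean of the gene. By the choice of genes, the 42 higher genes are on average redder at left and the 74 lower genes redder at right, with exceptions in single libraries and in line 13, and line 13 at passage 12 and line B at passage 8 entered the other side's range in 47 and 44 genes.

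No gene was well expressed throughout one side and unread throughout the other. With at least 5 reads in every library of one side and 0 reads in every library of the other, the count was 0 in both directions. With at least 1 read in every library, 1 gene was present on the AFX-prefixed side alone and 3 genes on the numbered side alone.

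The 2 genes of each direction that were furthest apart among those with separate library ranges, and with a mean of at least 1 FPKM, are given by identifier. ENSOARG00000003454 had a median of 61.6 FPKM in the AFX-prefixed libraries (lowest 46.8, highest 92.7) and of 4.12 FPKM in the numbered libraries (lowest 1.85, highest 5.76). The 2 sides were far from overlapping, and line 23 was the highest of the 5 lines. The mean over lines was 66.7 ± 21.0 FPKM (SD, n = 3 lines) against 3.89 ± 1.51 (SD, n = 2 lines), a ratio of 17.1. The difference on log2(FPKM + 1) was 3.80 ± 0.29 (SE), with an adjusted p of 0.0416 from limma. The call was lost in 7 of 30 alternatives. Leaving out line B, K or 1 gave adjusted p-values of 0.133, 0.0999 and 0.171 with differences of 3.85, 3.99 and 3.47. Testing without a filter gave 0.114, and leaving out line B at passage 7, line K at passage 7 or line 23 at passage 9 gave 0.0528, 0.0511 and 0.0533.

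ENSOARG00000009308 was read in every AFX-prefixed library and hardly at all on the numbered side. Its FPKM was 10.3 at the lowest, 13.6 at the median and 18.6 at the highest in the AFX-prefixed libraries, from 72 to 154 reads. In the numbered libraries it was listed between 0 and 0.42 FPKM, from 0 to 3 reads. With so few reads the ratio is best given from summed reads, 1004 against 11, as 49.5 per library total with an exact 95% interval of 27.5 to 99.5 that covers counting error only. The difference on log2(FPKM + 1) was 3.50 ± 0.15 (SE), with line means from 3.63 to 3.97 against 0.44 in line 1 and 0.23 in line 13 (limma, adjusted p = 0.00386). Without line B the adjusted p was 0.0728 and without line 1 it was 0.0523, with differences of 3.43 and 3.60.

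ENSOARG00000011377 separated the lines in 3 levels rather than 2. Lines B and K were near 0, with line means on log2(FPKM + 1) of 0.52 and 0.23, and 3 of their 6 libraries had 0 reads. Line 23 was at 3.47, with FPKM of 7.99, 8.91 and 14.4 at its 3 passages, and lines 1 and 13 were at 4.62 and 4.45. The numbered libraries ran from 14.9 to 29.6 FPKM, so line 23 at passage 9 came just short of line 13 at passage 12. The difference of -3.13 ± 0.93 (SE) did not pass the test (limma, adjusted p = 0.189), whereas without line 23 it was -4.16 with an adjusted p of 0.00728. Without line B or K the difference was -2.68 and -2.54, with adjusted p-values in limma of 0.332 and 0.251. Without line 1 or 13 it was -3.04 and -3.21.

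ENSOARG00000000956 had a median of 1.99 FPKM on the AFX-prefixed side (lowest 0.619, highest 3.82) and values on the numbered side that depended on the line. Line 1 had 32.1, 41.4 and 38.6 FPKM and line 13 had 8.49, 9.94 and 8.75 FPKM at its 3 passages. The side means did not overlap, but lines 1 and 13 were 1.93 apart on log2(FPKM + 1), a wider spread than the 1.25 among the AFX-prefixed lines. The difference was -2.75 ± 0.60 (SE, limma, adjusted p = 0.13). Within each of the 5 lines the standard deviation over passages was at most 0.19.

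**Figure D3:**
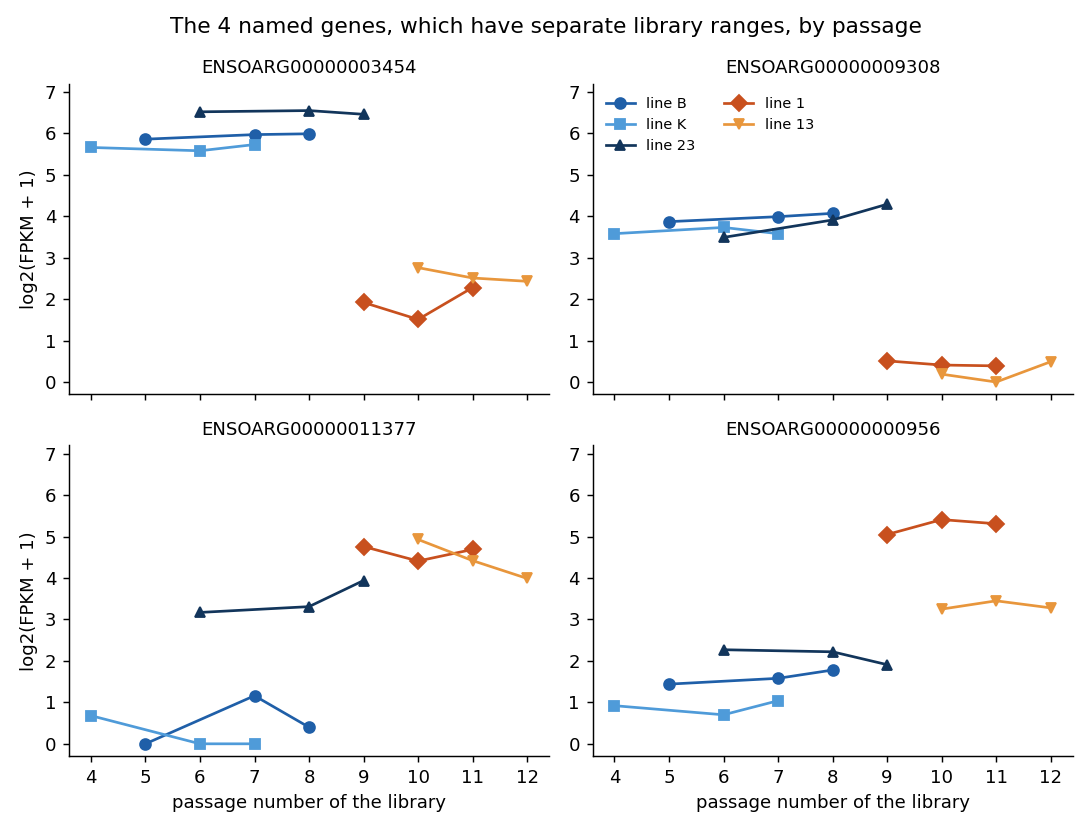
log2(FPKM + 1) of the 4 named genes (vertical) against passage (horizontal), 1 point for each library, joined within lines, with AFX-prefixed lines in blue and numbered lines in orange. In the upper panels the blue lines lie together above the orange ones, with differences of side means of 3.80 and 3.50, and in the lower panels line 23 at left and line 1 at right stand apart from the other lines of their side.

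The other 2 genes called by limma were singled out by that call. One was lower on the AFX-prefixed side, at a median of 1.28 FPKM against 9.91 (5 to 16 reads in a library against 40 to 61). Its line means were 1.11, 1.16 and 1.31 in lines B, K and 23 and 3.54 and 3.25 in lines 1 and 13, and its difference was -2.20 ± 0.14 (SE, adjusted p = 0.0206). The second was higher, at a median of 7.6 FPKM against 1.18, with a difference of 1.95 ± 0.16 (SE, adjusted p = 0.0473). Its numbered libraries held 1 to 20 reads, so its level there is known only roughly. In both genes the lines of a side lay within 0.35 of each other.

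Because passage differs between the sides, the change with passage inside each line was set beside the difference between sides. This slope uses only the deviations of libraries from their line mean, so the side difference does not enter its calculation. The higher and lower genes were, however, chosen on line means of the same libraries, so their counts are not independent of the choice. Their number was 116 with all libraries, 93 without line B at passage 5 and 100 without line K at passage 4. It was 137 without line B at passage 8 and 138 without line 13 at passage 12. A gene was counted as moving the same way when its slope pointed from the AFX-prefixed level towards the numbered level. Of the 42 higher genes 32 (76.2%) did so and of the 74 lower genes 56 (75.7%), against 6643 of all 13555 tested genes (49%). Multiplied by the 3.83 passages between the side means, the slope was as large as the whole difference in 8 of the 42 genes (19%) and 9 of the 74 (12.2%), against 3540 of all genes tested (26.1%), most of which had small differences. Its median share of the difference was 0.43 and 0.273, against -0.0307 over all genes tested.

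The slopes were also counted on each side. With slopes fitted on each side separately, 31 of 42 higher genes (73.8%) and 56 of 74 lower genes (75.7%) moved towards the numbered level within the AFX-prefixed lines, against 50.3% of all genes. Within the numbered lines, 16 of 42 (38.1%) and 20 of 74 (27%) continued in that direction with later passage, against 45.5% of all genes. Of the genes with separate library ranges, whatever their size, 41 of 72 above (56.9%) and 125 of 270 below (46.3%) had a slope in the direction of the difference. All these sets were chosen on values of the same libraries, so the counts by side are not independent of the choice either. The difference between the slopes of the sides was not tested for these counts.

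**Figure D4:**
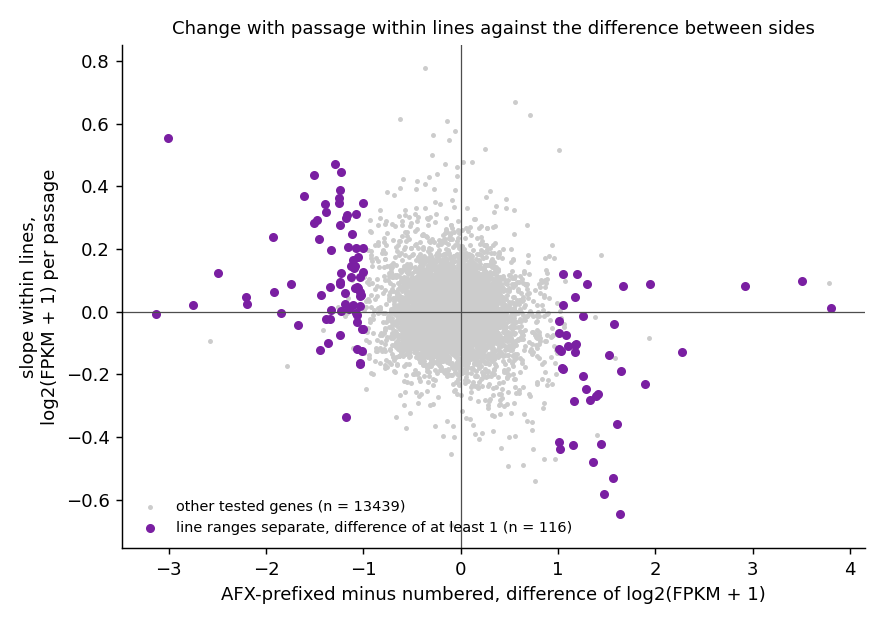
Slope within lines (log2(FPKM + 1) per passage, vertical) against the difference between sides (AFX-prefixed minus numbered, horizontal) for the 13555 tested genes. Of the 116 purple genes, with separate line ranges and a difference of at least 1, 88 lie at upper left and lower right, where the slope and the difference point the same way. The purple genes were chosen on line means of the same libraries. The named genes, at differences of 3.80, 3.50, -3.13 and -2.75, have slopes of 0.013, 0.097, -0.009 and 0.021.

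Slopes of the named genes did not pass the test. ENSOARG00000003454 changed by 0.013 ± 0.044 (SE) per passage on log2(FPKM + 1), ENSOARG00000009308 by 0.097 ± 0.047, ENSOARG00000011377 by -0.009 ± 0.092 and ENSOARG00000000956 by 0.021 ± 0.045, with adjusted p-values in limma of 0.443 to 0.985. The pooled slope of ENSOARG00000011377 joined opposite directions, 0.062 per passage in the AFX-prefixed lines and -0.255 in the numbered lines, where line 13 had 29.6, 20.4 and 14.9 FPKM at successive passages. A fit of all 15 libraries with line as a random effect used 1 correlation within lines for all genes, of 0.1156, so passages acted nearly as independent replicates of a side. It called 751 genes between the sides (181 higher and 570 lower), against 4 with the line as the unit. It gave ENSOARG00000011377 and ENSOARG00000000956 adjusted p-values of 0.00846 and 0.00111, against 0.189 and 0.13 on line means, although lines of 1 side were up to 3.25 and 1.93 apart in these genes. With passage added as a covariate (correlation 0.1597) the fit called 8 genes, 5 higher and 3 lower, and those adjusted p-values were 0.306 and 0.078. The differences of the named genes were then 4.22, 3.85, -2.14 and -2.60 in the order above, and 0 genes were called for passage itself (1131 at an unadjusted p below 0.05), the smallest adjusted p in limma being 0.0884. The slope within lines, without side in the fit, called 1 gene (1592 at an unadjusted p below 0.05). It called 0 genes when B, K or 1 was the line left out (1748, 837 and 1706 at an unadjusted p below 0.05), 6 in the absence of line 23 and 23 in the absence of line 13.

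Passage 9 was sampled on both sides, in line 23 and in line 1, and allows a reading at 1 passage. Genes were chosen again from the other 13 libraries by separate line ranges and a difference of at least 1, and then read in these 2 libraries. Of 48 genes chosen as higher on the AFX-prefixed side, 45 (93.8%) were higher in line 23 than in line 1 at passage 9, with a median difference of 1.09, and 27 (56.2%) by at least 1. Of 80 genes chosen as lower, 73 (91.2%) were lower, with a median difference of -0.985, and 40 (50%) by at least 1. Among all tested genes, 61.3% of those higher and 72.6% of those lower in the other libraries had the same direction at passage 9, and 2.79% and 4.87% did so by at least 1. Those genes had differences of any size, with medians of 0.108 and -0.15 in the other libraries, against 1.23 and -1.23 for the chosen genes. The 2 sets are therefore not alike. The reading compares 1 library with 1 library, without replicates, and both lines took part in the choice of genes at their other passages. It shows how far lines 23 and 1 kept a difference already used in the choice. Whether the sides differ at equal passage was not tested. The 4 named genes differed at passage 9 by 4.54, 3.79, -0.82 and -3.14, in the order given above.

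Over all genes, the libraries of the sides were apart along the first principal component, which held 26.7% of the variance. AFX-prefixed libraries had scores from -21.77 to 3.103 and numbered libraries from 6.32 to 28.14, and the mean over lines was lower on the AFX-prefixed side by 32.59 (exact permutation test over lines, two-sided, p = 0.1, the smallest the design allows). The libraries nearest to each other across the gap were line B at passage 8 and line 13 at passage 12. Line B stood at -19.28, then -12.08 and then 3.103 over its 3 passages, and line K at -21.77, -15.31 and -7.56. Line 23 showed no such order, with -11.67, -21.20 and -11.55. Line 1 stood at 28.14, 25.85 and 23.70 and line 13 at 17.78, 15.52 and 6.32, so that in both numbered lines the latest passage was the nearest to the AFX-prefixed side.

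**Figure D5:**
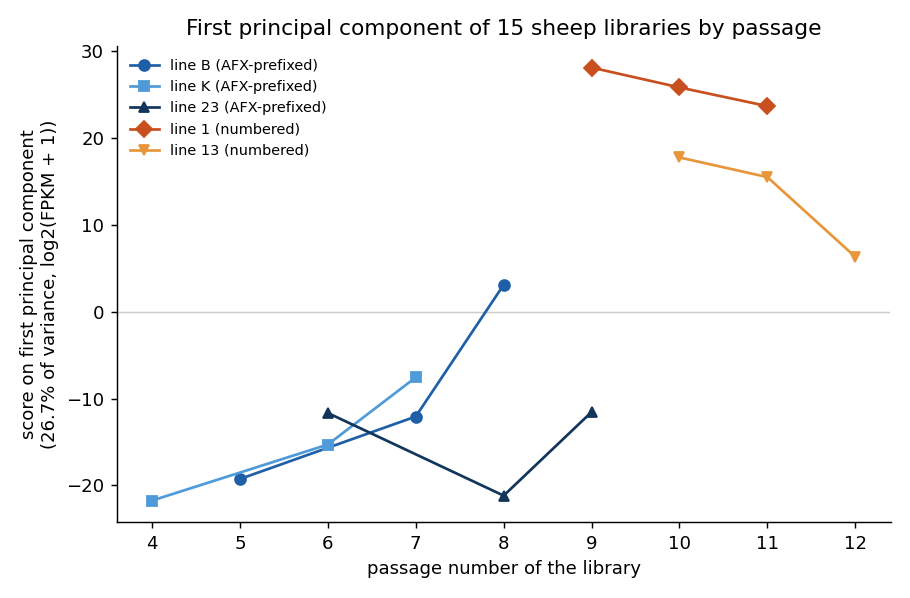
Score on the first principal component of log2(FPKM + 1) over the 13555 tested genes (vertical, 26.7% of the variance) against passage (horizontal), 1 point for each library, joined within lines. Numbered libraries lie from 6.32 to 28.14 and AFX-prefixed libraries from -21.77 to 3.103, and at the shared passage 9 line 1 stands at 28.14 and line 23 at -11.55.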

How the data were processed

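Sides, lines and passages were taken from the sample labels, and the members and lists were chosen with earlier results of these data known. The values deposited by the authors are log2(FPKM + 1). The methods name Trim-Galore for trimming, STAR for alignment to Oar_v3.1 and FeatureCounts for assignment to gene loci. The strand setting and annotation release were not given in the sources used here, so overlapping genes and near-identical copies are uncertain. Table columns were matched to libraries by name. Whole reads, lengths and library totals were worked back for 100% of genes above 0.

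Genes with 10 reads, scaled to the median total, in 3 libraries and 15 reads in all were tested with limma 3.58.1 (R 4.3.3) on line means (eBayes with trend, two-sided, Benjamini-Hochberg, threshold 0.05). The test was checked on simulated data. Passages may be only technically separate samples of a line. The p-values and SE of the comparison of sides rest on the spread between 5 lines, which limma moderates with that of other genes. Of the 6.255 degrees of freedom of the error, 3.255 came from this moderation. Fits of slopes take their error from libraries within lines, and fits of side on all 15 libraries pool the spread within and between lines. Genes were named by the largest difference among those with separate library ranges and a mean of at least 1 FPKM, limited to 2 a direction because identifiers matched no gene name (0 of 20921). The gene lists and markers of the design were for that reason not analysed here. Alternatives covered scaling, pseudocount, filter, passages, unit of the fit, and lines or libraries left out. Thinning to the smallest library total, the comparison of slopes between sides and the reading at passage 9 were added after the data were seen.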

Additional observations from a re-analysis of the deposited data

Results flagged for a closer look

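The change of expression with passage within lines differed between the sides in 95 genes (limma, interaction of side and passage with line as a factor, adjusted p below 0.05; 1697 genes at an unadjusted p below 0.05 of 13555 tested), a comparison that was added after the data were seen. It takes its error from single libraries, so passages serve as replicates and the spread of slopes between the lines of a side is not in the error. In 66 of them the slope was upward in the AFX-prefixed lines and downward in the numbered lines, and in 29 the reverse (the genes were chosen for a difference of slopes, which favours opposite signs). Among the 66, the median slope per passage was 0.349 in the AFX-prefixed lines and -0.355 in the numbered lines on log2(FPKM + 1). Of the 95 genes, 3 (3.16%) were among the 116 with separate line ranges and a difference of at least 1, which are 0.856% of all tested genes. The number of genes was 0 without line K, line 1 or line 13 (1295, 1211 and 922 at an unadjusted p below 0.05 in limma), 149 without line B and 160 without line 23. Among single libraries, it was 0 without line 1 at passage 9 or line 13 at passage 12 (1133 and 906 at an unadjusted p below 0.05), 1 without line K at passage 4, 2 without line K at passage 7 and 3 without line 13 at passage 10, and it was 41, 62, 201 and 215 without line K at passage 6, line 1 at passage 10, line B at passage 8 and line 23 at passage 8. The numbered lines were sampled over later passages than the AFX-prefixed lines, so a difference between sides and a difference between early and late passages cannot be told apart. Dixon's test by side flagged no library in library total, genes detected, summed FPKM, first principal component or the 4 named genes (16 groups, 0 past the limit). The test looks for 1 library apart from the rest, so libraries of a line that stand apart together can hide each other. In ENSOARG00000011377 the libraries of line 23 had 7.99, 8.91 and 14.4 FPKM, against at most 1.23 in lines B and K.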

How the results depend on the processing

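No paired analysis was possible because a replicate number in the 2 sides is only the order of passages of different lines. The 4 genes called between the sides became 1 with no filter, 8 with eBayes without a trend, 2 at the nearest passages, 13 with limma voom on reads summed per line, 751 with 15 libraries and line as a random effect, and 8 with passage added to that fit. Over lines left out the number ran from 0 to 26 and over libraries from 2 to 12. The cause of these shifts was not tested. The 5037 genes with separate line ranges fell to 116 with a difference of at least 1 and to 10 with at least 2, and were 6309 to 8269 without a line, where fewer lines have to be separate, and 4536 to 5283 without a library. The 116 genes became 320 with a pseudocount of 0.1, which widens differences of low genes by construction, 126 to 243 without a line and 93 to 138 without a library. The 342 genes with separate library ranges were 356 to 518 without a library. The 1 gene called for slope within lines became 0 when passages were ranked within a line, and 0 to 23 without a line. The 95 genes whose slope differed between sides became 358 with ranked passages, 0 to 160 without a line and 0 to 215 without a library. The 4 named genes kept their direction in 30 alternatives each, with differences from 3.47 to 4.22, 3.40 to 5.37, -4.62 to -2.14 and -3.72 to -1.79. Thinning all libraries to the smallest total left 3 calls, 115 genes with a difference of at least 1 and 317 with separate library ranges.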
